A study of Sus scrofa with 28 samples.

Results

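SVIP, the small VCP-interacting protein, was described in the loin muscle of 28 male piglets at 28 days of age. It was represented by 2 of the 5226 probe sets in the deposited table (called probe set 1 and probe set 2 here), found by the symbol SVIP in the study's list of probe sets and in the annotation of the array. The 14 crossbred piglets had a Duroc sire and an Iberian dam (DU×IB), and the 14 purebred piglets had Iberian parents on both sides (IB). All piglets were suckled until they were slaughtered at weaning, no other treatment was given, and RNA of the Longissimus dorsi of each was hybridized to 1 porcine genome array. The DU×IB piglets came from fewer litters than the IB piglets, as the study's methods state. Littermates are not marked in the labels, so the spread between piglets of a genetic type is not that of unrelated animals. The gene was chosen by the difference of its level between the genetic types on these same arrays, so that difference is given as a description, with no test.

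SVIP is a small protein anchored in the membrane of the endoplasmic reticulum (ER). It binds VCP, the ATPase that pulls misfolded proteins out of the ER so that the proteasome can degrade them, a route called ER-associated degradation (ERAD). In mammalian cells it binds DERL1 as well and inhibits ERAD, while an excess of it promotes autophagy. In the fly, SVIP recruits VCP to the lysosomes of muscle and is needed for their tubular network. Neither VCP nor DERL1 had a named probe set among those analysed here.

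The level of SVIP was low in most DU×IB piglets and well above background in most IB piglets, with few values in between. Probe set 1 had a lowest value of 2.49, a median of 2.72 and a highest value of 5.74 on the log2 scale in DU×IB, against 2.74, 5.52 and 7.10 in IB. Probe set 2 had a lowest value of 3.05, a median of 3.55 and a highest value of 8.02 in DU×IB, against 3.10, 8.09 and 9.36 in IB. The genetic types overlapped over nearly the whole range in both probe sets, because each type held a few piglets at the level of the other.

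Piglets were called above background when the value was over 4 on the log2 scale. By probe set 1 this was so in 2 of 14 DU×IB piglets, against 12 of 14 IB piglets. The DU×IB piglets above background were number 3, at 4.82 in probe set 1 and 7.08 in probe set 2, and number 11, at 5.74 and 8.02. The IB piglets near background were number 2, at 2.84 in probe set 1 and 3.10 in probe set 2, and number 3, at 2.74 and 3.12. By probe set 2 the count was 3 of 14 in DU×IB, against 12 of 14 in IB, the additional crossbred piglet being number 10, at 4.71 in probe set 2 and 3.06 in probe set 1. DU×IB 10 was thus highest among the 12 DU×IB piglets near background in both probe sets, and it lay far under every piglet called above background by probe set 1.

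**Figure D1:**
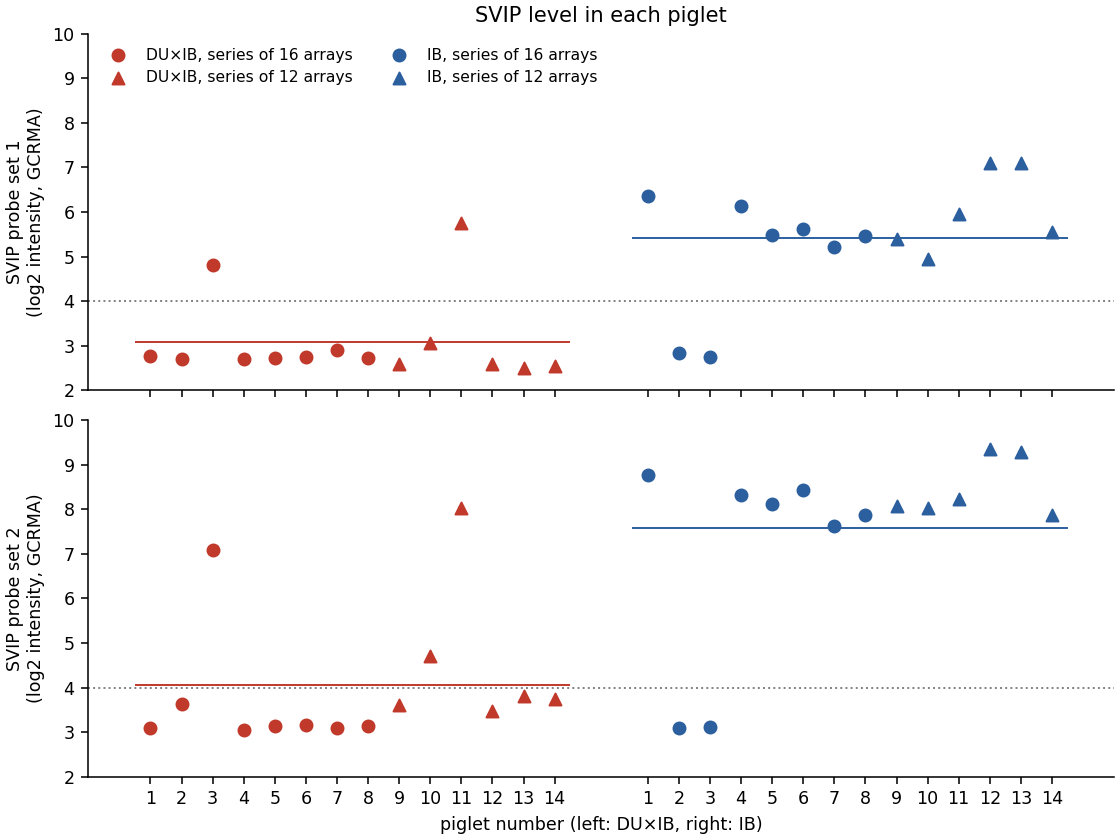
Level of SVIP in each of the 28 piglets by probe set 1 (top) and probe set 2 (bottom), as log2 intensity after GCRMA; DU×IB piglets are on the left and IB piglets on the right, circles and triangles mark the 2 hybridization series, horizontal lines are the means of each genetic type, and the dotted line is the level of 4. By probe set 1, 2 of 14 DU×IB piglets and 12 of 14 IB piglets lie above the dotted line.

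The gap between low and high values was wide. Sorted over all 28 piglets, probe set 1 had no value between 3.06 and 4.82, and probe set 2 had none between 4.71 and 7.08, and in both the gap divided the piglets into the same 14 low and 14 high ones. Among gaps with at least 10 piglets on either side, a limit chosen after the values were seen, the gap of 2.37 in probe set 2 was the third widest of 5226 and that of 1.76 in probe set 1 ranked 16, with a median over all probe sets of 0.17. No other probe set put the same 14 piglets highest, and none put them lowest, which makes 0 of 5224. The ADSSL1 and EF1ALPHA probe sets with the widest gaps of all, 3.90 with at least 2 piglets on either side and 3.15 with at least 10, therefore separated other piglets.

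The spread within each of the 2 levels was compared next. The 12 DU×IB piglets near background ranged from 2.49 to 3.06 in probe set 1 with a standard deviation (SD) of 0.16, and the 2 IB piglets near background lay inside this range. At most 2.83% of the probe sets of the table were at or below probe set 1 on these 14 arrays, so these values lie at the floor of the measurement and have no order among themselves. The 12 IB piglets above background ranged from 4.94 to 7.10 in probe set 1 (SD 0.70). In probe set 2 the same 12 DU×IB piglets ranged from 3.05 to 4.71 (SD 0.48), against 7.63 to 9.36 in the 12 IB piglets (SD 0.55). These SDs pool the 2 hybridization series, of 16 and of 12 arrays. In the series of 16, the low DU×IB values of probe set 2 ran from 3.05 to 3.64, a narrower range than 7.63 to 8.76 in the high IB piglets. In the series of 12 the ranges of probe set 2 were 3.47 to 4.71 and 7.88 to 9.36. Those of probe set 1 were 2.71 to 2.90 and 5.21 to 6.36 in the series of 16. In the series of 12 they were 2.49 to 3.06 and 4.94 to 7.10. The range of probe set 1 was thus much narrower at the low level, which is the floor, in both series. SDs within a series were not compared. Of the 2 high crossbred piglets, DU×IB 11 lay within the range of these IB piglets in both probe sets, while DU×IB 3 lay below it in both as deposited. By place on its own array, probe set 1 of DU×IB 3 was at or above 26.0% of the probe sets. That is inside the range of the 12 IB piglets, 17.7% in IB 10 to 52.1% in IB 12. Probe set 2 of DU×IB 3 was at 64.0%, below the lowest of them, 66.1% in IB 14.

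Averaged over piglets, probe set 1 was at 3.08 ± 0.96 in DU×IB and at 5.42 ± 1.29 in IB (SD, n = 14 each), a difference of -2.34 with a standard error (SE) of 0.43. Probe set 2 was at 4.06 ± 1.56 in DU×IB and at 7.58 ± 1.96 in IB (SD, n = 14 each), a difference of -3.53 (SE 0.67). The size of both differences is limited by the floor, at which most DU×IB values lie. Of the DU×IB piglets, 13 of 14 were below the median of IB by probe set 1 and 14 of 14 by probe set 2, with medians 2.80 and 4.55 lower. The SD of probe set 1 was larger than that of 91.2% of all probe sets in DU×IB and 93.3% in IB, and the SD of probe set 2 was larger than that of 99.2% in DU×IB and 99.3% in IB.

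The arrays fell into 2 hybridization series, of 16 and of 12 arrays, recognized here by the level of 10 spike-in probe sets. The series of 16 held 8 piglets of each genetic type and the series of 12 held 6 of each. In the series of 16, probe set 1 differed by -1.97 (SE 0.56) and probe set 2 by -3.24 (SE 0.97). In the series of 12 the differences were -2.84 (SE 0.64) and -3.91 (SE 0.76). Each series held 1 DU×IB piglet above background by probe set 1, and both IB piglets near background were in the series of 16, so that 6 of 8 IB piglets were above background there and 6 of 6 in the series of 12.

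The arrays of DU×IB 3 and IB 3 had the lowest medians over the table, 6.24 and 6.01, against 6.36 to 7.05 on the other 26 arrays. By the correlation with the median array of the series IB 3 was lowest at 0.89, whereas DU×IB 3, at 0.95, lay inside the range of 0.92 to 0.98 of the other 26, in which IB 1 was lowest at 0.92 and IB 12 was at 0.95. These are 2 of the 4 piglets whose SVIP level lay on the side of the other genetic type, and the part of these arrays in that position was not tested. By probe set 1, the same 4 piglets (DU×IB 3 and 11, IB 2 and 3) were on the side of the other genetic type after median centring and after quantile normalization.

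The 2 probe sets gave the same account of each piglet above background. Probe set 2 exceeded probe set 1 by 2.26 and 2.28 in the 2 DU×IB piglets above background, against 2.18 to 3.08 in the 12 IB piglets. Because the piglets fall into clusters, their relation was measured within clusters, after removal of the hybridization series. In the 12 IB piglets above background, Pearson's r was 0.92 (permutation test, two-sided, p = 8e-05, adjusted over the 2 genetic types 0.00016) and Spearman's rho was 0.90 (permutation p = 0.00032, adjusted 0.00064). Without the 2 piglets farthest from the median of probe set 1, r was 0.74 (permutation p = 0.0125, adjusted 0.0251) and rho 0.68 (permutation p = 0.0352, adjusted 0.0704). In the 12 DU×IB piglets near background r was 0.72 (permutation p = 0.0316, adjusted 0.0316) and rho 0.53 (permutation p = 0.0799, adjusted 0.0799), and without the farthest 2 of these piglets r turned to -0.32 (permutation p = 0.253), so that this relation rested on those 2. Both probe sets were read on the same arrays and share their depth and scaling.

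**Figure D2:**
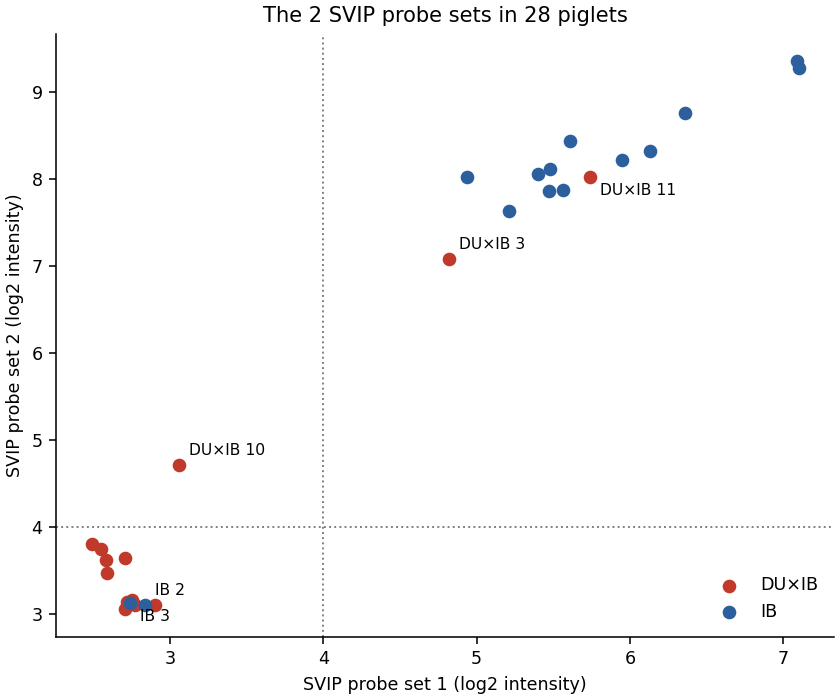
Probe set 2 against probe set 1 of SVIP (log2 intensity) in 28 piglets, DU×IB in red and IB in blue; dotted lines mark the level of 4. Both probe sets separate the same 14 low piglets from the same 14 high ones, and the labelled piglets are those on the side of the other genetic type and DU×IB 10.

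The genes of the pathways in which SVIP acts were compared between the genetic types with limma over all probe sets, with an adjusted p under 0.10 as the threshold. This test called 52 of 5226 probe sets, or 0.995%, of which 2 are those of SVIP and are no result here because they were used to choose the gene. Adding the hybridization series to the model as a block gave 145, or 2.77%. Of 163 genes in 6 lists, 46 had a probe set in the table. Counted over 1 probe set per gene, none of the 46 passed the test (0 by limma, 8 at an unadjusted p under 0.05, against 444 of the 5226 probe sets) and 1 passed with the series as a block. Among the further probe sets of these genes, 1 of ERO1L passed in the model with the series. The study itself used a Bayesian model with the series, at a false discovery rate under 0.10. It listed MARCH6, NGLY1 and PLAA as upregulated in IB, and ERO1L as differentially expressed by more than 1 probe set. The median difference of the 46 genes was -0.10, against 0.02 over all probe sets. Of the 46, 30 were lower in DU×IB, none of which is a call, against 2480 of all 5226 probe sets.

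Among ERAD ligases and retrotranslocation proteins 9 of 30 genes were measured, and 7 of the 9 had a lower mean in DU×IB, with a median difference of -0.30. MARCH6, a ubiquitin ligase of the ER membrane, had a lowest value of 8.83, a median of 9.25 and a highest value of 9.89 in DU×IB, against 9.23, 9.88 and 10.55 in IB. The groups overlapped, with 13 of 14 DU×IB piglets under the IB median. The difference was -0.54 (SE 0.17, adjusted p = 0.185 by limma), and it passed with the series as a block (adjusted p = 0.0335). TMEM111, a subunit of the complex that inserts proteins into the ER membrane, was at 3.32 ± 0.30 in DU×IB and at 3.84 ± 0.62 in IB (SD, n = 14 each), near background in both (difference -0.51, limma adjusted p = 0.369).

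Of VCP and its cofactors 10 of 37 genes were measured, 4 with a higher and 6 with a lower mean in DU×IB. UBE4A, a ubiquitin chain elongation factor, was at 5.63 ± 0.61 in DU×IB and at 6.18 ± 0.71 in IB (difference -0.55, SE 0.25, limma adjusted p = 0.515). NGLY1, which removes N-glycans from proteins drawn out of the ER, was at 8.20 ± 0.70 in DU×IB and at 8.60 ± 0.63 in IB (difference -0.40, SE 0.25, limma adjusted p = 0.798). The 95% interval of the difference ran from -1.05 to -0.04 for UBE4A and from -0.91 to 0.11 for NGLY1.

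All 4 measured genes for the recognition of misfolded glycoproteins, of 17 in the list, had a higher mean in DU×IB, as had 2746 of all 5226 probe sets. UGGT2, a sensor that adds glucose back to misfolded glycoproteins, had a lowest value of 6.81, a median of 8.20 and a highest value of 8.73 in DU×IB, against 3.01, 7.19 and 8.28 in IB. The groups overlapped between 6.81 and 8.28, and 11 of 14 DU×IB piglets were above the IB median (difference 1.03, SE 0.35, limma adjusted p = 0.254). The difference of UGGT2 was 1.44 in the series of 16 and 0.47 in the series of 12. CANX, the membrane chaperone calnexin, was at 4.22 ± 0.50 in DU×IB and at 4.06 ± 0.65 in IB.

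ER chaperones and redox enzymes had 8 of 27 genes measured, 4 with a higher and 4 with a lower mean in DU×IB. DNAJB9, a co-chaperone that hands unfolded proteins to ERAD, was at 7.95 ± 0.48 in DU×IB and at 8.52 ± 0.66 in IB (difference -0.57, SE 0.22, limma adjusted p = 0.391). ERO1L, the oxidase that drives disulfide formation, was at 6.11 ± 0.53 in DU×IB and at 6.59 ± 0.77 in IB (difference -0.48, SE 0.25, limma adjusted p = 0.625). A second probe set of ERO1L differed by -0.81 (limma adjusted p = 0.358) and passed with the series as a block (adjusted p = 0.0195). The chaperone HSPA5, the main binding protein of unfolded chains in the ER, was at 11.3 ± 0.51 in DU×IB and at 11.2 ± 0.49 in IB, and the 95% interval of its difference ran from -0.38 to 0.44.

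In the unfolded protein response 5 of 18 genes were measured. ASNS, asparagine synthetase, was at 9.99 ± 0.93 in DU×IB and at 8.95 ± 1.41 in IB (difference 1.05, SE 0.42, limma adjusted p = 0.401), while ATF4, a transcription factor that induces ASNS, was at 13.2 ± 0.52 in DU×IB and at 13.6 ± 0.43 in IB (difference -0.44, SE 0.20, limma adjusted p = 0.503). All 10 measured genes of autophagy and the tubular lysosome, of 34, had a lower mean in DU×IB, as had 2480 of all 5226 probe sets. Their median difference was -0.11, with a range from -0.46 for GABARAPL1, which helps autophagosomes to mature, to -0.03 for LAMP2. These genes were read on the same arrays, so their directions are not separate observations. GABARAPL1 was at 5.63 ± 0.54 in DU×IB and at 6.10 ± 0.83 in IB (limma adjusted p = 0.697), and ATG12, which is conjugated to ATG5 in autophagosome formation, was at 5.93 ± 0.54 in DU×IB and at 6.22 ± 0.61 in IB (limma adjusted p = 0.924).

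**Figure D3:**
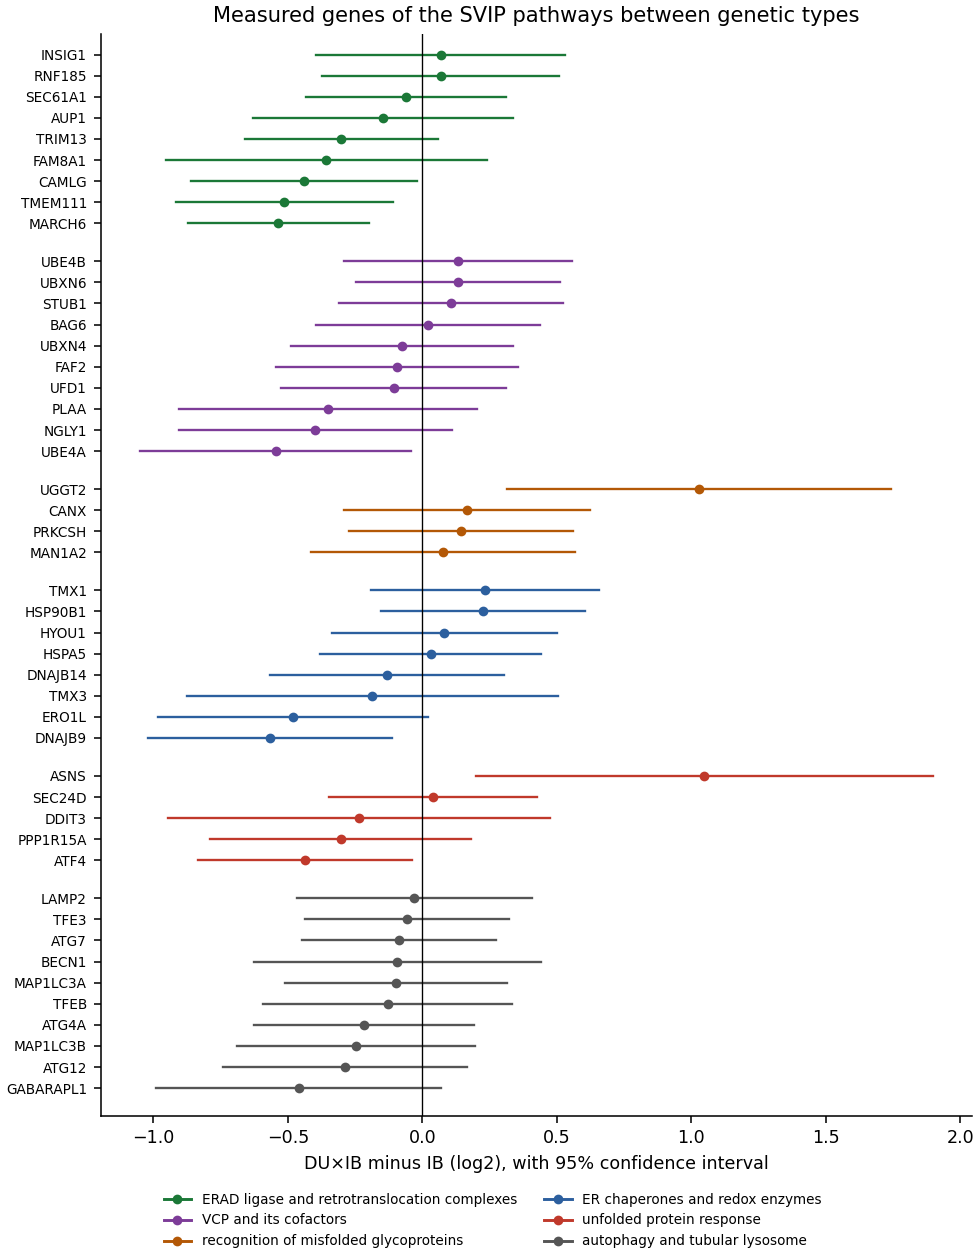
Difference between genetic types, DU×IB minus IB on the log2 scale, with its 95% confidence interval (limma), for the 46 measured genes of 6 lists around SVIP, coloured by list. None passed an adjusted p under 0.10. All 10 genes of the autophagy list lie left of 0, as do 2480 of all 5226 probe sets, and the 10 intervals include 0.

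The surroundings of SVIP in the genome could be read only in part. In the Sscrofa11.1 annotation of RefSeq, 11 annotated genes lie within 2 Mb on either side, 7 of them protein-coding, and GAS2 overlaps SVIP. None of them had a named probe set in the table. The nearest measured genes were FIBIN and CCDC34 on one side and HTATIP2 and E2F8 on the other, looked up after this was known. FIBIN differed by 0.15 (SE 0.22), CCDC34 by 0.10 (SE 0.18), HTATIP2 by 0.30 (SE 0.36) and E2F8 by 0.50 (SE 0.24). E2F8, a repressor of cell cycle genes, had the lowest adjusted p of these, 0.586 by limma, and its levels of 3.33 ± 0.85 in DU×IB and 2.84 ± 0.35 in IB were near background.

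To find genes that follow SVIP within the genetic types, each of the other 5224 probe sets was fitted by limma on the level of probe set 1, with genetic type and hybridization series in the model. None passed (0, or 0%, with 496 at an unadjusted p under 0.05 and a lowest adjusted p of 0.512). The outcome rested on the array of DU×IB 3, without which 682 probe sets passed, 604 of them with a positive slope. Without both arrays of lowest median, those of DU×IB 3 and IB 3, again 0 passed, with 558 at an unadjusted p under 0.05. Without all 4 piglets on the side of the other genetic type 88 passed, 77 with a positive slope.

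The likeness of each probe set to SVIP was described by Pearson's r with probe set 1 over the 28 piglets after genetic type and hybridization series were removed. It reached 0.96 for probe set 2 of SVIP, whereas the other 5224 probe sets ranged from -0.67 to 0.64 with a median of 0.08. Over 1 probe set per gene, the 46 pathway genes ranged from -0.48 to 0.43 with a median of -0.01, and 22 of them were positive. A further probe set of CAMLG lay above this range at 0.50, against 0.13 for the one counted. The likeness is a description over arrays that share scaling and batch, in which the 4 piglets on the side of the other genetic type lie farthest from the mean of their type in SVIP.

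FANCG, a subunit of the Fanconi anaemia core complex of DNA repair, had the highest likeness among named genes, 0.64. Its likeness was 0.45 within DU×IB and 0.72 within IB, and 0.69 over both without DU×IB 3 and IB 3. FANCG was at 5.05 in DU×IB 3 and 6.28 in DU×IB 11, with a range of 4.37 to 6.28 over DU×IB, and at 3.27 in IB 2 and 4.46 in IB 3, with a range of 3.27 to 6.78 over IB. The highest DU×IB value of FANCG was thus in DU×IB 11 and the lowest IB value in IB 2, while DU×IB 3 lay near the DU×IB median of 5.00. FANCG was picked by its likeness, in which the piglets on the side of the other type lie farthest out in SVIP. Their values are therefore a description only. ACSL5, which activates long-chain fatty acids, followed with 0.61 (0.21 within DU×IB, 0.81 within IB).

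PPP1R12A, the targeting subunit of myosin phosphatase, had a likeness of 0.58, and ENPP4, a hydrolase of extracellular nucleotides, had 0.56. KIAA1551 also had 0.56, with -0.12 within DU×IB and 0.81 within IB, while its other 3 probe sets were at 0.35 to 0.43, with 0.24 to 0.50 within DU×IB and 0.32 to 0.38 within IB. ZC3H7A, a zinc finger protein, had 0.53, and CLEC2D, a C-type lectin, had 0.52. ENPP4 was itself among the probe sets lower in DU×IB than in IB (difference -1.31, limma adjusted p = 0.017). Its level was at 4.70 in DU×IB 3 and 5.39 in DU×IB 11, in a range of 3.85 to 5.39 over DU×IB, against 4.69 in IB 2 and 4.40 in IB 3, in a range of 4.40 to 7.58 over IB. Apart from SVIP, 50 probe sets were called between the genetic types. The likeness of the 40 higher in DU×IB had a median of -0.14, and that of the 10 lower in DU×IB had a median of 0.02.

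At the other end, CEACAM16, a member of the carcinoembryonic antigen family, had the lowest likeness, -0.67 (-0.59 within DU×IB, -0.72 within IB, and -0.66 over both without DU×IB 3 and IB 3). CEACAM16 was at 8.09 in DU×IB 3 and 7.09 in DU×IB 11, in a range of 7.09 to 8.96 over DU×IB, against 9.40 in IB 2 and 8.67 in IB 3, in a range of 5.77 to 9.40 over IB. CKAP4, a membrane protein of ER sheets, had -0.57, but its other 2 probe sets had -0.27 and -0.10. HNRNPL, a splicing regulator, had -0.55, VMO1 had -0.53 and EGR1, an immediate early transcription factor, had -0.53. The other 2 probe sets of EGR1 had -0.45 and -0.47. GPX7, a peroxidase of the ER lumen, had -0.53, YIF1A, which acts in transport from the ER to the Golgi apparatus, had -0.52, and TSTA3, an enzyme of GDP-fucose synthesis, had -0.52.

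Likeness was also described within each genetic type. Within DU×IB 12 of 14 SVIP values lie near the floor, so that it rests largely on DU×IB 3 and 11. Within IB (14 piglets, series removed) the highest likeness was that of RDX, which links actin to the plasma membrane, at 0.94, then PCGF5, a Polycomb subunit, at 0.87 and PTGR2, which reduces prostaglandin metabolites, at 0.86. Within DU×IB the same 3 genes were at -0.14, -0.45 and -0.45. The lowest within IB were ZNF282 at -0.86, TNFAIP6 at -0.79 and ZBED4 at -0.78, with 0.29, -0.13 and 0.20 within DU×IB. Within DU×IB the highest were LOC106504299 at 0.85, CDIPT, the phosphatidylinositol synthase, at 0.80 and NOTCH4, a Notch receptor, at 0.78, with 0.19, 0.01 and -0.08 within IB. The lowest within DU×IB were PRPS2 at -0.83, CD59 at -0.81 and SLC25A24 at -0.80, with -0.04, 0.49 and 0.58 within IB. Other probe sets of these genes gave other values in part. The second probe set of RDX was at -0.51 within DU×IB and 0.90 within IB, that of PRPS2 at -0.71 and 0.54, and that of CD59 at 0.21 and -0.09. Over the 12 IB piglets above background alone, the correlation was 0.85 for RDX, 0.71 for PCGF5 and 0.54 for PTGR2, and it was -0.70 for ZNF282, -0.35 for TNFAIP6 and -0.48 for ZBED4.

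**Figure D4:**
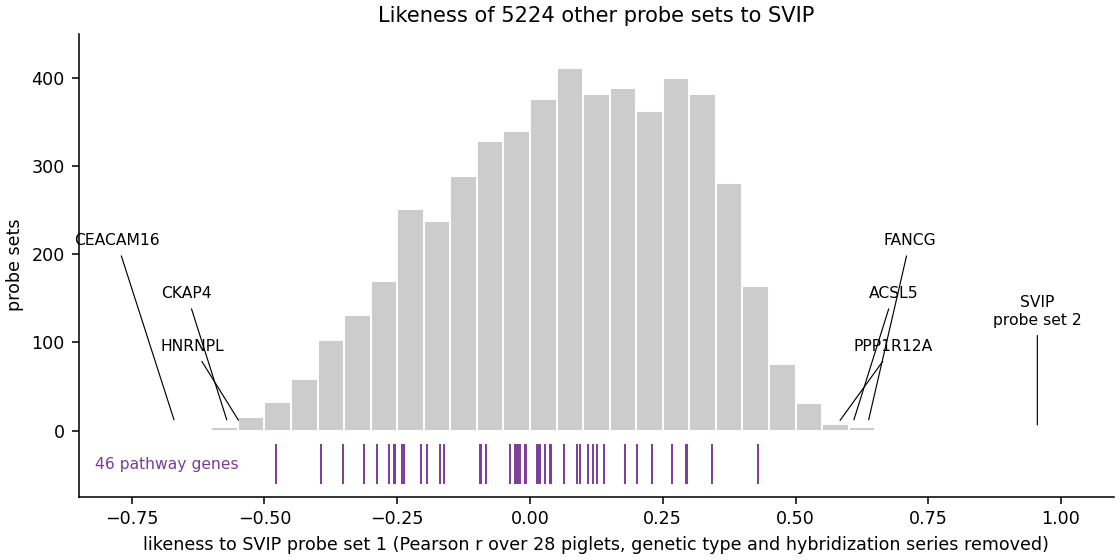
Number of probe sets by their likeness to SVIP probe set 1 (Pearson's r over 28 piglets, genetic type and hybridization series removed), with the 46 pathway genes as ticks under the axis. Probe set 2 of SVIP lies at 0.96, apart from the other 5224, which range from -0.67 to 0.64.

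Whether the relation to SVIP differs between the genetic types was tested as an interaction in limma. It called 918 of 5224 probe sets, or 17.6%, 780 of them with a slope lower in DU×IB than in IB and 138 with a higher one. This count was 0 without DU×IB 3 (668 at an unadjusted p under 0.05), 59 without IB 3 and 0 without both (469 at an unadjusted p under 0.05). The arrays of lowest median, DU×IB 3 and IB 3, had SVIP levels on opposite sides of their genetic types, so that a low median goes with a high SVIP level in DU×IB and with a low one in IB, and the interaction cannot be told apart from these 2 arrays.

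The 12 IB piglets above background gave a range of SVIP levels free of the floor, and limma was fitted over them alone, with the series in the model, an analysis chosen after the levels were seen. It called 2 of 5224 probe sets, or 0.0383%. SCD, the desaturase that makes oleic acid, had a slope of -2.23 per unit of SVIP on the log2 scale (SE 0.31, adjusted p = 0.0343). GBP2, an interferon-induced GTPase, had a slope of 2.09 (SE 0.34, adjusted p = 0.0733). Their correlations with SVIP over these piglets were -0.90 for SCD and 0.87 for GBP2, with Spearman's rho of -0.91 and 0.87.

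Among these 12 piglets, the 3 of highest SVIP level had the lowest SCD and the highest GBP2. SVIP was at 7.10 in IB 13, 7.09 in IB 12 and 6.36 in IB 1 in probe set 1. SCD was at 4.96, 4.07 and 5.60 in these piglets, and at 6.75 to 10.5 in the other 9 IB piglets above background. GBP2 was at 7.64, 9.34 and 8.00 in them, and at 4.45 to 5.53 in the other 9. SCD ranged from 5.89 to 8.12 over DU×IB, and among the IB piglets near background it was at 11.3 in IB 2 and 4.65 in IB 3. GBP2 ranged from 4.11 to 5.69 over DU×IB and was at 4.26 in IB 2 and 5.26 in IB 3.

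With probe set 2 of SVIP in place of probe set 1, 81 probe sets passed, or 1.55%, 75 of them with a positive slope. They included SCD (-2.97, adjusted p = 0.00368), GBP2 (2.84, adjusted p = 0.00422), GBP1, a related GTPase (3.32, adjusted p = 0.0075), UBD, a ubiquitin-like modifier (3.12, adjusted p = 0.00982), TAP1, a peptide transporter for antigen presentation (2.05, adjusted p = 0.00982), and GM2A, a lysosomal lipid-transfer protein (2.67, adjusted p = 0.0112). Their adjusted p with probe set 1 was 0.186 for GBP1, UBD and GM2A and 0.231 for TAP1. These genes were named after their values were seen. IB 12, IB 13 and IB 1 were highest in probe set 2 too, at 9.36, 9.28 and 8.76. They also had the highest GBP1, UBD, TAP1 and GM2A of the IB piglets. The fit with probe set 2 was not repeated without them or with other scalings, so its dependence on these piglets was not tested.

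The calls with probe set 1 depended on single piglets. Without IB 12 and IB 13 no probe set passed (0 by limma, 319 at an unadjusted p under 0.05), and the slopes were -2.80 for SCD (adjusted p = 0.67) and 1.64 for GBP2 (adjusted p = 0.737). Without IB 12 alone, or IB 14 alone, none passed, and after centring or quantile normalization of the arrays none passed either, with an adjusted p of 0.151 or 0.138 for both genes. The slopes kept their direction in these settings. That of SCD was -2.16 without IB 12, -2.18 without IB 14, -2.17 after centring and -2.19 after quantile normalization, and that of GBP2 was 1.71, 2.05, 2.08 and 2.11 in the same order. Leaving out IB 1, 5, 6, 7, 8, 9 or 13 left only SCD, while 8 probe sets passed without IB 10 and 28 without IB 4.

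Marker genes of other cell types were set against SVIP in the same 12 piglets. All 8 measured macrophage markers, of 15, had a positive slope on probe set 1 over the 12 IB piglets above background, with correlations of 0.36 to 0.77 and a median of 0.61, although none passed with probe set 1 and 3 passed with probe set 2. With probe set 2, 81 of all 5224 probe sets passed, and the share of positive slopes over all probe sets was not counted for this fit. Of 5 endothelial markers 4 had a positive slope (correlations of -0.04 to 0.40), and MBP, the only nerve marker measured, had a correlation of 0.64, with 0.82 for its other probe set. All 3 measured fibroblast markers had a negative slope, with correlations of -0.47 to -0.18. The mean level of the 8 macrophage markers ranged from 5.25 to 5.91 over DU×IB and from 5.45 to 7.93 over IB. It was 7.93 in IB 1, 7.40 in IB 12 and 6.18 in IB 13, and 5.45 to 5.96 in the other IB piglets. None of the markers was at 0, since the log2 values have a floor above it. CTSS, a lysosomal protease of antigen-presenting cells, and C1QC, a subunit of complement, had correlations of 0.77 and 0.75 over the 12 IB piglets. Within DU×IB, where most SVIP values lie near the floor, the likeness of all 8 macrophage markers but FCER1G (0.29) was negative, down to -0.69 for CTSS. Over all 28 piglets it was 0.13 to 0.42 for the 8 markers, and it was positive for 3264 of the 5224 other probe sets. In whole muscle a change in the share of a cell type and a change of RNA per cell cannot be told apart, and the part of macrophages in the slopes was not tested.

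**Figure D5:**
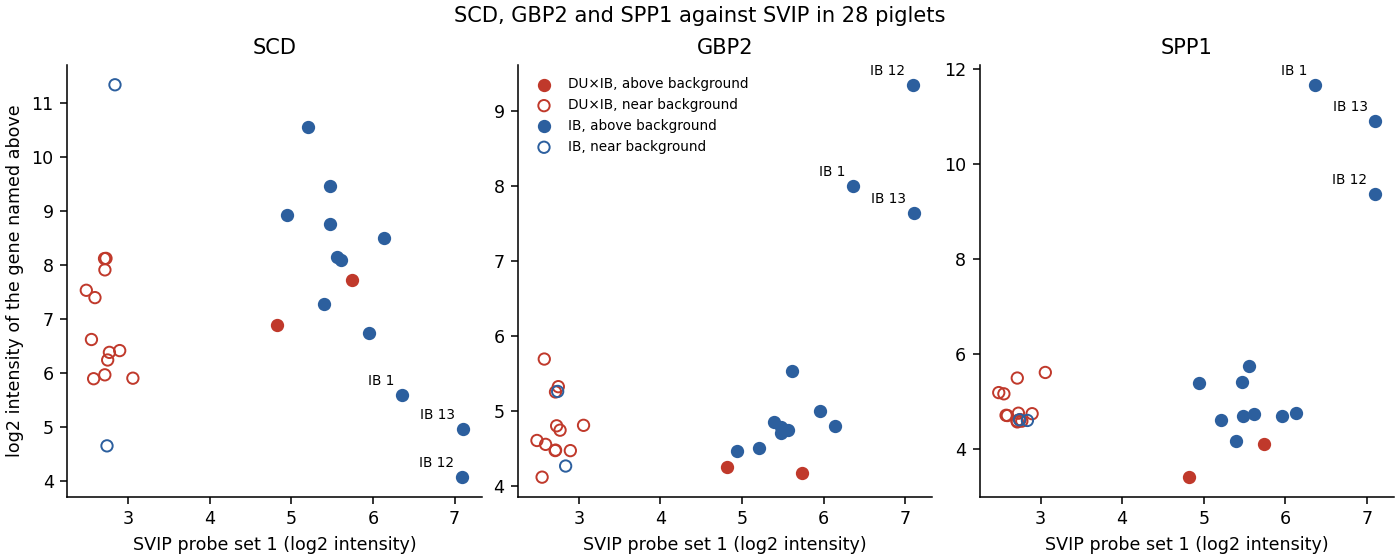
Level of SCD, GBP2 and SPP1 (log2 intensity) against SVIP probe set 1 in 28 piglets, DU×IB in red and IB in blue, with filled points for piglets above background. IB 1, IB 12 and IB 13 have the highest SVIP levels, the highest GBP2 and SPP1 and, among IB piglets above background, the lowest SCD.

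The other marker lists bear on the tissue and on the difference between the genetic types. The 5 measured muscle fibre markers, of 24, had a mean level of 11.4 to 12.0 in DU×IB and of 10.7 to 12.2 in IB. The 3 measured adipocyte markers, of 16, had a mean level of 10.3 to 11.4 in DU×IB and of 10.6 to 12.1 in IB. None of the markers of muscle fibres, adipocytes, macrophages, endothelium, fibroblasts, red blood cells or nerve passed between the genetic types by limma (0 of 27), and 3 passed once the series was a block, 2 of them fibroblast markers higher in DU×IB. All 8 macrophage markers had a lower mean in DU×IB, with differences of -0.67 (C1QA) to -0.17 (MRC1), none of which is a call. Over all probe sets, 2480 of 5226 were lower in DU×IB. The mean level of the 8 markers was highest in IB 1 (7.93) and IB 12 (7.40), and its part in the SVIP level was not tested.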

How the data were processed

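Total RNA of the Longissimus dorsi of 28 piglets was hybridized by the authors to Affymetrix porcine arrays, 1 per piglet. Per the labels and the study's methods, images were processed with GCOS, and the deposited values are log2 intensities made by the authors with GCRMA (background correction by probe sequence, quantile normalization, summary per probe set). The authors kept 5226 probe sets after a filter on variation, so genes that vary little are not analysed here. Low values on the GCRMA scale are compressed towards a floor. No reads are counted on an array, so the number of arrays limits the precision.

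The study's tables named 572 probe sets and the platform annotation named 2073, while 2581 had no usable name. A pathway gene with several probe sets was represented by the one in the study's list, otherwise by that of highest mean. SVIP and the lists were chosen with earlier results of these data known. Named genes were both SVIP probe sets, the 2 of lowest p in each pathway list where none passed, and the 8 named genes of highest and of lowest likeness over both types (3 within each type); some of them are left unreported here. HSPA5 and the genes of the fit over 12 IB piglets were added after their values were seen.

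Groups followed the titles. The hybridization series is not in the labels and was recovered from the level of 10 bioB and bioC spike-in probe sets, 6.19 to 7.01 on 12 arrays and 8.93 to 9.68 on 16. Piglets 1 to 8 of both types are in the larger series, so piglet numbers hold the series, and same-numbered piglets were not paired beyond it (correlation of their deviations over 0.1 in 2 of 14 pairs once the series was removed, range -0.35 to 0.54).

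Contrasts and slopes used limma 3.58.1 in R 4.3.3 (two-sided, lmFit and eBayes, p-values adjusted by Benjamini-Hochberg over every probe set tested, threshold 0.10), tested on simulated data; SVIP itself got no test between types. Slopes left out both SVIP probe sets. Correlations of the 2 probe sets used permutation tests with 100000 resamples (scipy). Alternatives were other scalings, the series or replicate number as a block, each series alone, probe set 2 or ranks as covariate, a stricter threshold, dim probe sets (mean under 4 in both types) left out, and each piglet left out.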

Additional observations from a re-analysis of the deposited data

Results flagged for a closer look

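The relation of other probe sets to SVIP differed between the genetic types by the interaction test, which passed for 918 probe sets. The slope was lower in DU×IB for 780 and higher for 138. The count was 1472 with probe set 2 of SVIP, 39 without the hybridization series in the model and 1599 without DU×IB 11. It was 59 without IB 3, and 0 without DU×IB 3, without both of these arrays, or without these and IB 2 and DU×IB 11. The medians of the arrays of DU×IB 3 and IB 3, 6.24 and 6.01, were the lowest of their genetic types, and with both left out no probe set passed (469 at an unadjusted p under 0.05).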

How the results depend on the processing

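The differences of both SVIP probe sets kept their direction and moved by less than the spread between piglets in all 35 alternatives each. They were -2.55 to -2.21 for probe set 1 and -3.87 to -3.39 for probe set 2 when 1 piglet was left out. With the series or the replicate block they stayed at -2.34 and -3.53, which is fixed in advance by the equal numbers of each type in every block. The gene was chosen for this difference, so its direction in these settings is a description only. At a level of 5 in place of 4, 1 DU×IB piglet was above background by probe set 1, and at a level of 3 all 14 were by probe set 2. Over 1 probe set per gene, 1 pathway gene passed with the series as a block (MARCH6; a second probe set of ERO1L did too) and 3 with the replicate block (MARCH6, UBE4A and UGGT2, against 145 of all 5226 probe sets), and 0 in the other settings, also when any 1 piglet was left out. The replicate block holds the series, since equal numbers are in the same series. Probe sets that follow SVIP numbered 0 to 682 when 1 piglet was left out, 88 without the 4 piglets on the side of the other type and 0 in the 9 other settings. Interactions numbered 1472 with probe set 2, 39 without the series, 0 with the replicate block, 416 at an adjusted p under 0.05, 0 without IB 3 and DU×IB 3, 0 without the 4 piglets, and 0 to 1599 when 1 piglet was left out. Over the 12 IB piglets above background, the calls numbered 81 with probe set 2, 1 with ranks, 11 without the series, 0 after centring, 0 after quantile normalization, 1 at an adjusted p under 0.05, 0 without IB 12 and IB 13, and 0 to 28 when 1 piglet was left out. Over all 14 DU×IB piglets r of the 2 probe sets was 0.96, with a rho of 0.16, and 0.22 without the 2 farthest piglets; when 1 piglet was left out it was 0.90 to 0.96, against 0.93 to 0.97 in IB. No neighbour within 2 Mb was measured, so that comparison gave no value. Causes were not tested. Differences among SVIP values near background are not read as differences in SVIP, the crossbred piglets share few litters, and the slopes rest on 28 or 12 piglets.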

Other observations

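Other genes among those with the lowest p over the 12 IB piglets above background, named after their values were seen, were SPP1, a secreted matrix protein also made by macrophages, and C1R, a protease of the complement cascade. SPP1 ranged from 3.42 to 5.62 over DU×IB. It was at 11.7 in IB 1, 9.37 in IB 12 and 10.9 in IB 13, and at 4.17 to 5.76 in the other IB piglets. Its slope on probe set 1 was 3.04 (SE 0.67, limma adjusted p = 0.186), and with probe set 2 it was 4.02 (limma adjusted p = 0.0345). C1R had a slope of 1.19 on probe set 1 (SE 0.28, limma adjusted p = 0.232) and of 1.67 on probe set 2 (limma adjusted p = 0.0182). IFI44L, an interferon-induced gene, had a slope of 1.37 (SE 0.25, limma adjusted p = 0.146) on probe set 1. In none of SPP1, C1R and IFI44L did the genetic types differ past the threshold (limma adjusted p = 0.536, 0.466 and 0.897).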
